A study of Homo sapiens with 9 samples.

Results

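The genes described are 38 of the 37247 genes listed in each of 2 deposited count tables. They were chosen by name for their place in glycolysis or in the response to low oxygen, with earlier results of these data known. They were found through the symbols of the Ensembl identifiers. By role they are 16 glycolytic enzymes, 3 glucose and lactate transporters, 3 regulators of glycolytic flux, 4 subunits or oxygen sensors of the hypoxia-inducible factor (HIF) system, and 12 HIF targets. RNA sequencing was done on an immortalized human trabecular meshwork line, a model of the tissue through which aqueous humour leaves the eye, grown on collagen and held without serum for 24 h in every group. Cells then received 0.1 µM dexamethasone (DEX), a synthetic glucocorticoid, 1 µM norepinephrine (NE), the adrenergic agonist released by sympathetic nerves, or the vehicle DMSO, and were collected after 6 h. Each group had 3 labelled replicates of a single line. Whether these were separate cultures is not stated, so every p-value measures the spread between these libraries, part of which may be technical. The first table pairs 3 DEX libraries with 3 vehicle libraries, and the second pairs 3 NE libraries with 3 other vehicle columns that could not be matched to a labelled sample. Treated libraries were compared only with the vehicle columns beside them in the same table.

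Glycolysis breaks glucose down to pyruvate and yields ATP and lactate without oxygen. Its pace is set mainly by glucose uptake, by hexokinase, by phosphofructokinase and by the PFKFB enzymes, which make and remove an activator of phosphofructokinase. When oxygen is low, prolyl hydroxylases of the EGLN family stop marking the HIF alpha proteins for destruction, and HIF then raises the transcription of glycolytic genes, VEGFA, CA9 and others. Because HIF alpha is controlled largely at the protein level, transcripts of HIF1A and EPAS1 do not report HIF activity by themselves. Trabecular meshwork has no blood vessels and is nourished by the aqueous humour.

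The 5-letter core of the HIF binding site was located in the promoters of 4 genes: HK2, HIF1A and EPAS1, which were called after a treatment, and CA9, a standard hypoxia marker that was not. Each line below holds the 250 bases before the first listed RefSeq start site (GRCh38.p14, plus strand, 5′ to 3′), with ACGTG or GCGTG on either strand in capitals. The stretches lie at chr2:74833877-74834126 for HK2, chr14:61695263-61695512 for HIF1A, chr2:46297157-46297406 for EPAS1 and chr9:35673678-35673927 for CA9. GENCODE places the gene start of HK2, EPAS1 and CA9 farther upstream. The whole EPAS1 stretch and parts of the HK2 and CA9 stretches therefore lie within those gene models.
HK2: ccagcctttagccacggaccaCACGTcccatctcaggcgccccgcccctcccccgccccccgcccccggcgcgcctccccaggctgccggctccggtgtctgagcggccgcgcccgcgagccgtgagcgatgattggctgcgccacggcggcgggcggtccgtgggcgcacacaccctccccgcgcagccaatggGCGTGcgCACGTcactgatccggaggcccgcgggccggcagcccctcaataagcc
HIF1A: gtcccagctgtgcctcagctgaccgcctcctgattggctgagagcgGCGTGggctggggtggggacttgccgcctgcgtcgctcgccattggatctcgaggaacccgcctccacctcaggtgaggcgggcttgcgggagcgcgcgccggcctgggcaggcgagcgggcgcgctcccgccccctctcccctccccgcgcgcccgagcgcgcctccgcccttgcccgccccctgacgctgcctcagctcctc
EPAS1: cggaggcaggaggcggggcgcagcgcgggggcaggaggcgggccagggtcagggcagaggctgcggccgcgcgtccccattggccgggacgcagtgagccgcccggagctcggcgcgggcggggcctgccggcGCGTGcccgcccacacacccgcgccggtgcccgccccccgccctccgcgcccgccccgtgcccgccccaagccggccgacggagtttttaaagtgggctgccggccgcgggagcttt
CA9: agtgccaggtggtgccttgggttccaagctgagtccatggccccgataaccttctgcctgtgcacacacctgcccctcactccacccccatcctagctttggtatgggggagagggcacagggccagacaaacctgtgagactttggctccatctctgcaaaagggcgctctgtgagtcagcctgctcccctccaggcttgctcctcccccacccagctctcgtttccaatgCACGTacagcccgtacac

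In these stretches HK2 holds 3 such cores, beginning 229, 55 and 48 bases before this start site, and the other 3 genes hold 1 each. HK2 and HIF1A each have a further listed start site. The window of 300 bases around it holds 6 cores for HK2 and 0 for HIF1A. Windows of 300 bases (250 before and 50 after the start) were found for 34 of the 38 genes, 64 windows in all, and BNIP3L, SLC2A3, NDRG1 and VEGFA had no entry. ACGTG on either strand was present in 25 of the 64 windows (39.1%), against 21.4% of all 35116 promoter windows. GCGTG was present in 42.2% of the windows, against 36.5% of all. At least 1 of the 2 cores was in 43 of the 64 windows (67.2%), against 48.4% of all. The window of P4HA2, which was called after DEX, held 0. The full palindromic glucocorticoid response element was in 0 of the 64 windows, against 0.00285% of all windows. The cAMP element TGACGTCA was in 1 window (LDHA), against 1.85% of all. The shorter TGACG, which TGACGTCA contains, was in 21.9%, against 24.6% of all. All were searched on both strands. These matches describe letters, not binding sites.

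Library totals were 19326830 to 27337259 counts in the DEX table and 31104094 to 36216506 in the NE table. Among the 15 listed trabecular meshwork markers, 9 were at or above 1 CPM (counts scaled to library size with TMM factors) in every library, while MYOC, AQP1 and ANGPTL7 stayed below 1 CPM in all. Endothelial, epithelial, and melanocyte and Schwann marker lists summed to at most 9.97 CPM in any library. All 5 smooth muscle and pericyte markers were at or above 1 CPM in every library, with sums of 212 to 223 CPM with vehicle and 235 to 240 CPM with DEX, and of 174 to 195 and 167 to 181 CPM with vehicle and NE. The trabecular meshwork list, mostly FN1, summed to 7080 to 8130 CPM with vehicle and 8880 to 10000 CPM with DEX. The part of these shifts in the results below was not tested. The immune list summed to 28.2 to 30.8 CPM in the DEX table and 61.2 to 71.6 CPM in the NE table, most of it CD68. The treatments were visible in their check genes: TSC22D3, a glucocorticoid-induced gene, went from 7.76 ± 0.66 to 103.2 ± 5.0 CPM with DEX (SD, n = 3), and DUSP6, an ERK phosphatase, from 51.0 ± 4.2 to 21.7 ± 2.9 CPM with NE. TSC22D3 was also higher after NE, with log2 changes of 0.44 to 0.50 over the 15 alternative settings. Vehicle library 1 of the NE table was less like the remaining vehicle columns beside it than they were like each other. Its root mean square log2 difference from them over genes above 10 CPM was 0.177 and 0.198, against 0.107 between the other two, so results of the NE table are also given without it.

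Transcripts of the later glycolytic enzymes were the most abundant. Levels between genes are compared here as CPM per kb of annotated exon, scaled over all 12 libraries. The order depends on this length, which is 8.57 kb for PKM and 10.7 kb for GPI. Their longest transcripts are 3.02 and 4.34 kb, and the order was not worked out by that length. GAPDH, which oxidises glyceraldehyde 3-phosphate, averaged 1449 CPM per kb in the vehicle libraries of the DEX table. ENO1, the enolase, followed at 551, the isomerase TPI1 at 404, the pyruvate kinase PKM at 348, the aldolase ALDOA at 343, the mutase PGAM1 at 281, LDHA, which makes lactate, at 124, and the phosphoglycerate kinase PGK1 at 86.0. These 8 enzymes held the first 8 places in both vehicle sets, where TPI1, PKM and ALDOA differed little and came in another order in the NE table. With DEX, HIF1A passed PGK1 by the mean (87.9 against 85.8 CPM per kb) and took place 8. It lay above PGK1 in DEX library 1 (94.4 against 83.8) but not in DEX library 2 or 3. HIF1A came next at 64.8, well above EPAS1, which encodes HIF-2 alpha, at 20.5. The lowest were PFKFB4 at 1.24, ANKRD37 at 0.656 and EGLN3, an oxygen sensor, at 0.0232 CPM per kb. EGLN3 had 2 to 10 counts per library and was the only member not tested.

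The summed reads of the 16 glycolytic enzymes made up 1.54 ± 0.033% of all counts in the vehicle libraries of the DEX table and 1.53 ± 0.010% with DEX (SD, n = 3). In the NE table the share was 1.69 ± 0.052% with vehicle and 1.66 ± 0.042% with NE. For the enzymes, the ranges of treated and vehicle libraries overlapped in each table. The 12 HIF targets together took 0.0710 ± 0.00030% with vehicle and 0.0760 ± 0.00068% with DEX, and 0.0761 ± 0.00085% with vehicle and 0.0782 ± 0.0010% with NE. For the targets the DEX libraries lay above all their vehicle libraries, while the NE and vehicle ranges overlapped. This sum does not by itself show a shared rise of the targets. After DEX, 10 of the 12 had a log2 change above 0, with a median of 0.05 against -0.0059 for all genes. NDRG1 alone averaged 90.4 CPM with vehicle and 129 CPM with DEX, while 9 of the 12 did not pass the test given below and 1 fell.

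**Figure D1:**
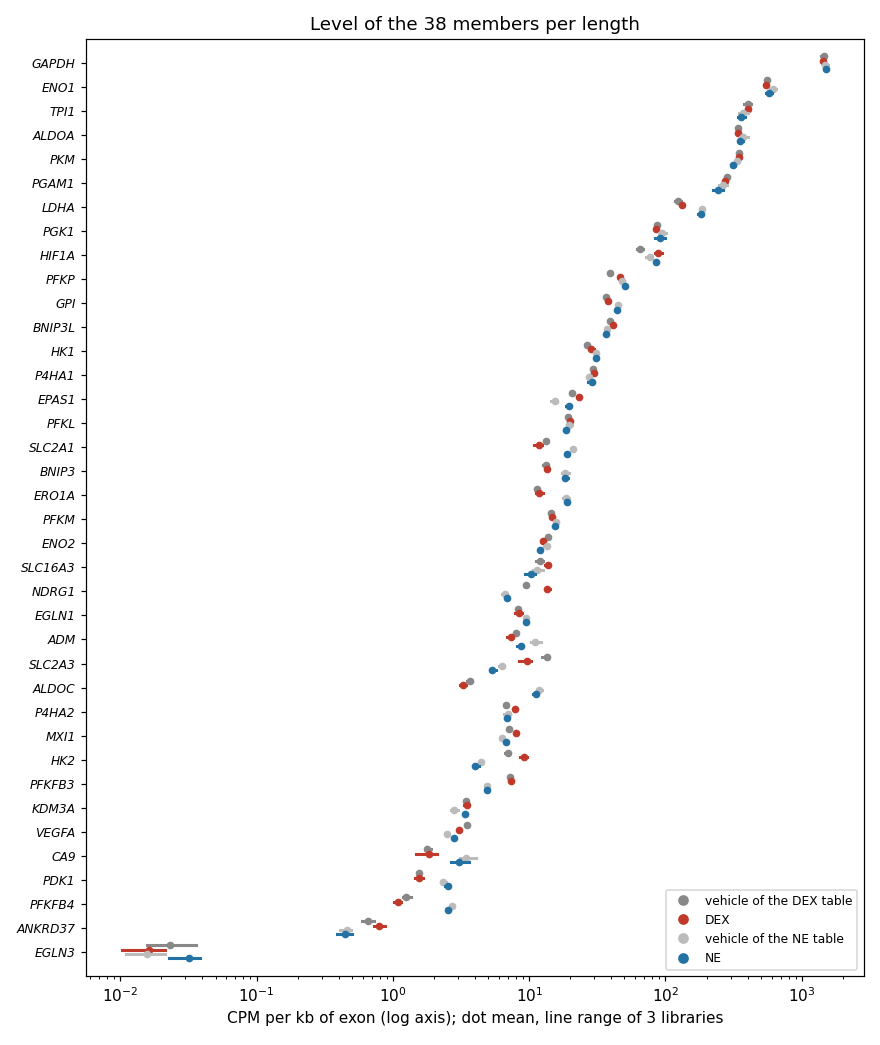
Level of each of the 38 members in CPM per kb of exon on a log axis, with a dot at the mean and a line over the range of 3 libraries, by group. GAPDH is highest at 1449 in the vehicle libraries of the DEX table and EGLN3 lowest, and ALDOC, PFKFB4 and SLC2A3 show wide gaps between the tables.

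After DEX, 7 members rose and 2 fell among the 37 tested, by edgeR's quasi-likelihood test with adjusted p below 0.05 over all genes. That is 24.3% of the members, against 10.1% of all 15133 genes called (6.65% higher and 3.46% lower). The rises were in HK2, PFKP, SLC16A3, HIF1A, EPAS1, NDRG1 and P4HA2, and the falls in SLC2A3 and VEGFA. The median log2 change of the members was 0.03, against -0.0059 for all genes. Vehicle and DEX libraries did not overlap for 21 members (14 higher, 7 lower), against 28.2% of all genes (15.2% higher and 13.1% lower). The plot of effects shows that the called members were scattered over the roles: 2 of 16 glycolytic enzymes, 2 of 3 transporters, 0 of 3 flux regulators, 2 of 3 tested HIF subunits and sensors, and 3 of 12 HIF targets.

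**Figure D2:**
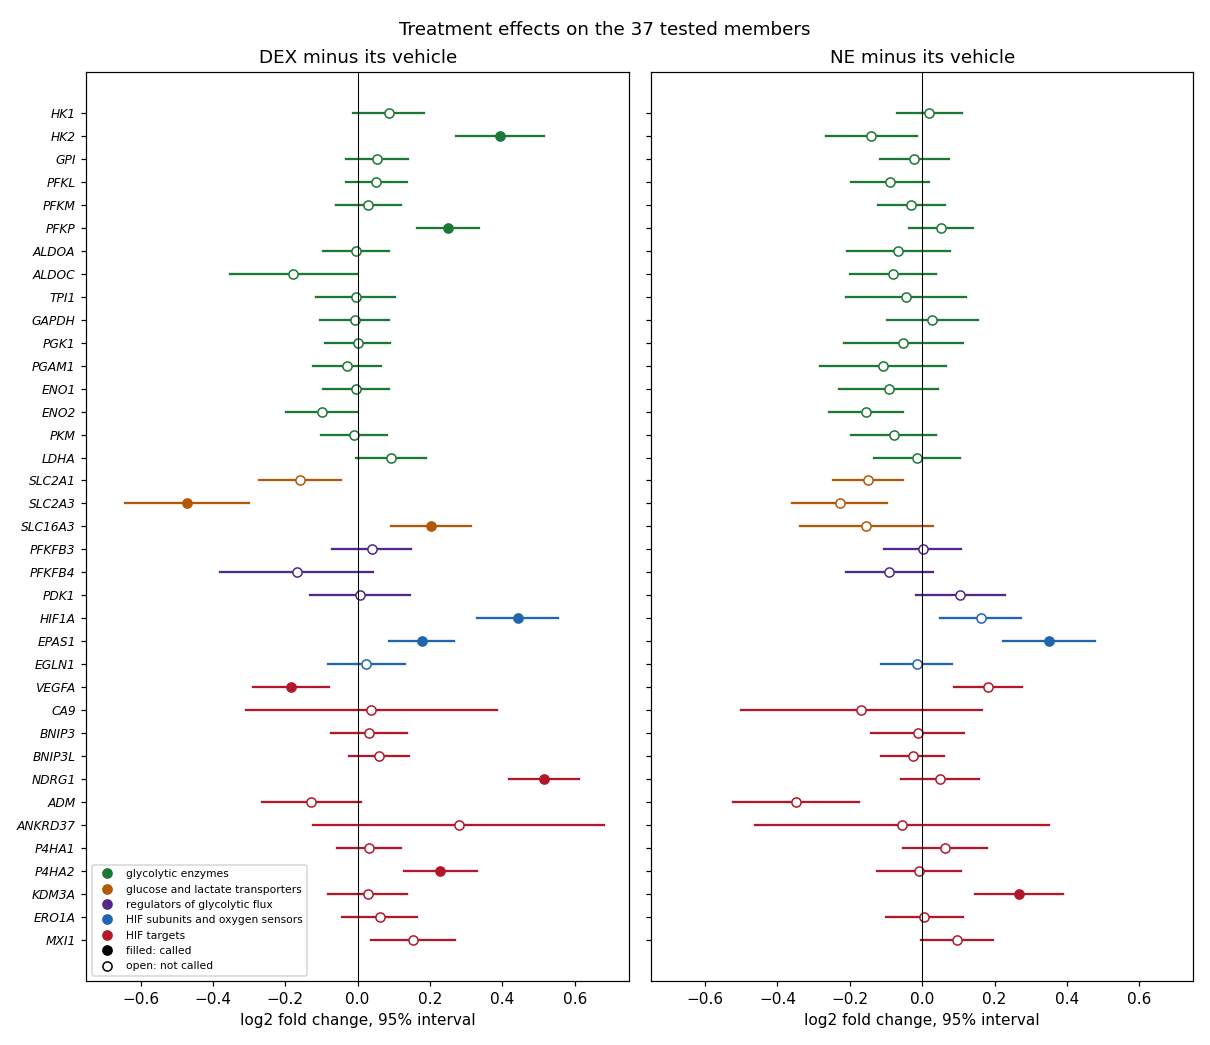
Log2 fold change of the 37 tested members after DEX (left) and NE (right), each against the vehicle columns in the same table, with 95% intervals. Colours give the role, and filled dots passed the test: 9 after DEX and 2 after NE.

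HK2 encodes the inducible hexokinase that traps glucose in the cell. It was 39.3, 43.0 and 40.9 CPM in the vehicle libraries and 57.2, 53.5 and 51.1 CPM with DEX. Every DEX library was above every vehicle library, and the log2 change was 0.39 ± 0.056 (SE, adjusted p = 0.000269). Its share of hexokinase transcripts per length, beside HK1, went from 20.7 ± 0.94% to 24.4 ± 1.5% (SD, n = 3). PFKP, the platelet-type phosphofructokinase, was 177, 186 and 187 CPM with vehicle and 217, 220 and 217 CPM with DEX. These groups also did not overlap, with a log2 change of 0.25 ± 0.040 (SE, adjusted p = 0.00074). PFKP was already the main phosphofructokinase per length, at 53.6 ± 0.66% of the 3 forms with vehicle and 57.2 ± 0.22% with DEX. Both calls held in all 15 alternative settings.

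The other 14 glycolytic enzymes did not pass the test after DEX. Their log2 changes ran from -0.18 (ALDOC) to 0.09 (LDHA), and 13 of the 14 had 95% intervals within 0.32 on the log2 scale in either direction. LDHA was 757, 783 and 713 CPM with vehicle and 790, 801 and 810 CPM with DEX, a log2 change of 0.09 (adjusted p = 0.245). GAPDH, often used as a reference gene, had a log2 change of -0.01 with an interval of -0.10 to 0.09.

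SLC2A3, the high-affinity glucose transporter GLUT3, was 84.5, 82.7 and 74.9 CPM with vehicle and 60.7, 62.5 and 51.1 CPM with DEX. All DEX values lay below all vehicle values, and the log2 change was -0.47 ± 0.077 (SE, adjusted p = 0.00266), 1.39-fold lower. SLC2A1, the basal glucose transporter GLUT1, was 61.3, 61.7 and 60.4 CPM with vehicle and 57.6, 55.8 and 50.7 CPM with DEX. These groups did not overlap either, but the log2 change of -0.16 did not pass the test (adjusted p = 0.076). SLC2A3 supplied 50.3 ± 1.4% of the transcripts of this pair per length with vehicle and 44.9 ± 1.3% with DEX.

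SLC16A3, the MCT4 transporter that exports lactate, was 111, 105 and 97.9 CPM with vehicle and 115, 123 and 123 CPM with DEX. Its log2 change was 0.20 ± 0.051 (SE, adjusted p = 0.0199). The call, though not the direction, was lost when some single libraries were left out. Without vehicle library 2 or 3 the log2 change was 0.21 (adjusted p = 0.085) or 0.15 (adjusted p = 0.058). Without DEX library 2 or 3 it was 0.18 (adjusted p = 0.124) or 0.19 (adjusted p = 0.0646), all by edgeR, and the fit of all 12 libraries also did not call it (adjusted p = 0.12).

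None of the flux regulators passed the test after DEX. PFKFB3, the form with the strongest kinase activity, was 44.3, 41.8 and 42.4 CPM with vehicle and 44.99, 44.54 and 42.49 CPM with DEX, a log2 change of 0.04 (adjusted p = 0.707). PDK1, a pyruvate dehydrogenase kinase, was 22.6, 22.8 and 22.4 CPM with vehicle and 22.9, 24.1 and 21.1 CPM with DEX, a log2 change of 0.01 (adjusted p = 0.963). In both genes the groups overlapped. PFKFB4 had a log2 change of -0.17 (adjusted p = 0.342).

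HIF1A, the oxygen-regulated subunit of HIF-1, was 311, 325 and 342 CPM with vehicle and 474, 434 and 421 CPM with DEX. The groups were well separated, with a log2 change of 0.44 ± 0.052 (SE, adjusted p = 4.8e-05), and the call held in all 15 alternatives. EPAS1 was 141, 149 and 149 CPM with vehicle and 169, 165 and 161 CPM with DEX. Its log2 change of 0.18 ± 0.042 (SE, adjusted p = 0.0135) was smaller, and the call was lost by edgeR without vehicle library 2 (0.19, adjusted p = 0.0519), DEX library 1 (0.16, adjusted p = 0.0672) or DEX library 2 (0.17, adjusted p = 0.0665). EGLN1, the main oxygen sensor, had a log2 change of 0.02 (adjusted p = 0.819). EPAS1 made up 24.1 ± 0.48% of the transcripts of the pair per length with vehicle and 20.9 ± 0.63% with DEX.

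Of the 12 HIF targets, NDRG1 and P4HA2 rose after DEX and VEGFA fell. NDRG1, a stress-responsive gene linked to growth arrest and differentiation, was 90.1, 90.4 and 90.7 CPM with vehicle and 126, 126 and 136 CPM with DEX. This was the largest change among the members, a log2 change of 0.52 ± 0.045 (SE, adjusted p = 2.2e-06) or 1.43-fold. P4HA2, a collagen prolyl hydroxylase, was 56.4, 56.7 and 55.0 CPM with vehicle and 63.0, 66.4 and 67.4 CPM with DEX, a log2 change of 0.23 ± 0.047 (SE, adjusted p = 0.00524). For both genes the groups were separate and the call held in all 15 alternatives.

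VEGFA, the angiogenic growth factor, was 51.3, 48.1 and 48.9 CPM with vehicle and 43.0, 44.5 and 42.9 CPM with DEX. All DEX values were lower, with a log2 change of -0.19 ± 0.049 (SE, adjusted p = 0.0265). The call was fragile: DESeq2 gave adjusted p = 0.0759, and edgeR gave log2 changes of -0.16 to -0.21 and adjusted p of 0.056 to 0.0939 without vehicle library 1 or 2 or DEX library 1, 2 or 3. CA9, the carbonic anhydrase used as a hypoxia marker, was 2.83, 2.84 and 3.09 CPM with vehicle and 3.40, 2.43 and 3.20 CPM with DEX. The groups overlapped (log2 change 0.04, interval -0.31 to 0.38, adjusted p = 0.919), and with 55 to 83 counts per library in this table the interval is wide. The remaining targets not called, BNIP3, BNIP3L, ADM, ANKRD37, P4HA1, KDM3A, ERO1A and MXI1, had log2 changes from -0.13 to 0.28.

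**Figure D3:**
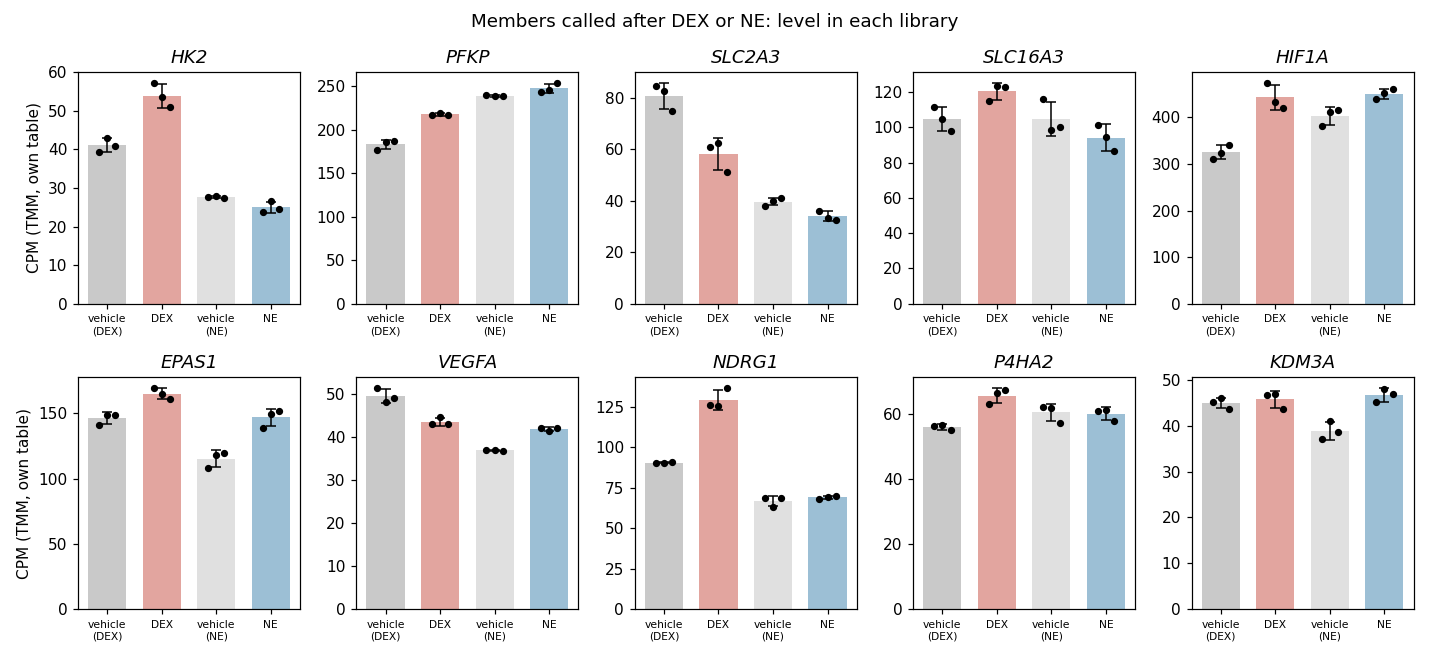
CPM in each library (dots) with the mean (bar) and SD (error bar, n = 3) for the 10 members that passed the test after DEX or NE, scaled within their own table. HK2, HIF1A and NDRG1 are higher in all 3 DEX libraries than in their vehicle libraries, SLC2A3 is lower, and EPAS1 and KDM3A are higher in all 3 NE libraries.

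After NE, 2 of the 37 members rose and 0 fell by edgeR, with 9 at an unadjusted p below 0.05. That is 5.41% of the members, against 2.82% of all 15630 genes called (1.48% higher and 1.34% lower). The median log2 change was -0.03, against -0.0031 for all genes, and 15 members did not overlap between groups (6 higher, 9 lower), against 21% of all genes (11.1% higher and 9.99% lower). DESeq2 called 1 member lower. The 2 that rose were EPAS1 and KDM3A.

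EPAS1 was 108, 118 and 120 CPM with vehicle and 139, 150 and 152 CPM with NE. Every NE library was above every vehicle library, with a log2 change of 0.35 ± 0.056 (SE, adjusted p = 0.0155). Without vehicle library 1, which stood apart, the log2 change was 0.30 (adjusted p = 0.0035), whereas the call was lost without vehicle library 2 (0.37, adjusted p = 0.064), NE library 2 (0.33, adjusted p = 0.118) or NE library 3 (0.32, adjusted p = 0.104). Its share of HIF1A and EPAS1 transcripts per length went from 16.8 ± 0.14% to 18.7 ± 0.37%. HIF1A itself was 382, 412 and 416 CPM with vehicle and 440, 453 and 461 CPM with NE. These groups did not overlap but did not pass the test (log2 change 0.16, adjusted p = 0.162, and 0.00222 with the replicate block).

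KDM3A, a histone demethylase and HIF target, was 37.01, 40.92 and 38.55 CPM with vehicle and 45.2, 48.1 and 46.9 CPM with NE. The groups were separate, with a log2 change of 0.27 ± 0.053 (SE, adjusted p = 0.0404). Without vehicle library 1 it was 0.23 (adjusted p = 0.0278). By edgeR the call was lost without vehicle library 2 (0.31, adjusted p = 0.0661), vehicle library 3 (0.26, adjusted p = 0.145), NE library 1 (0.29, adjusted p = 0.0773), NE library 2 (0.24, adjusted p = 0.22) or NE library 3 (0.26, adjusted p = 0.186).

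The 16 glycolytic enzymes had log2 changes from -0.16 to 0.05 after NE, and all 16 intervals lay within 0.32 on the log2 scale. HK2 was 27.6, 27.9 and 27.3 CPM with vehicle and 23.9, 26.6 and 24.7 CPM with NE, lower in all 3 libraries but not past the test (log2 change -0.14, adjusted p = 0.297). LDHA had a log2 change of -0.01 (adjusted p = 0.935), PFKFB3 of 0.0013 (adjusted p = 0.993), PDK1 of 0.11 (adjusted p = 0.45), SLC2A1 of -0.15 (adjusted p = 0.139) and CA9 of -0.17 (interval -0.50 to 0.17, adjusted p = 0.686). VEGFA was 36.79, 36.96 and 36.75 CPM with vehicle and 42.0, 41.2 and 42.1 CPM with NE. These groups did not overlap, but its log2 change of 0.18 fell short of the threshold (adjusted p = 0.0637). It passed in the fit of all 12 libraries (adjusted p = 0.0188) and with the replicate block (adjusted p = 0.00844).

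ADM, a vasodilator peptide induced by hypoxia, was 33.9, 28.9 and 29.2 CPM with vehicle and 24.8, 24.8 and 22.6 CPM with NE. The NE libraries were all lower, and the log2 change of -0.35 had an adjusted p of 0.0553 by edgeR and 0.007 by DESeq2, with ADM called in 7 of 15 alternatives. Leaving out vehicle library 1 placed 3 members past the threshold as lower: ADM (-0.27, adjusted p = 0.0291), SLC2A3 (-0.26, adjusted p = 0.0291) and the enolase ENO2 (-0.18, adjusted p = 0.0328).

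The DEX and NE effects differed for 5 members in a fit of all 12 libraries (DEX change minus NE change), 4 larger and 1 smaller with DEX. That is 13.5% of the members, against 6% of all 15952 genes called (3.88% larger and 2.12% smaller). For HK2 the difference was 0.53 ± 0.080 on the log2 scale (SE, adjusted p = 0.00077), from a log2 change of 0.39 with DEX and -0.14 with NE. For NDRG1 it was 0.46 ± 0.062 (adjusted p = 0.00028), from 0.52 and 0.05. For VEGFA it was -0.37 ± 0.058 (adjusted p = 0.0011), from -0.19 and 0.18. These 3 calls held in all 20 alternatives. VEGFA's own change was called in 8 of 15 alternatives after DEX and 3 of 15 after NE.

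The difference for HIF1A was 0.28 ± 0.076 (SE, adjusted p = 0.045) and for PFKP 0.19 ± 0.049 (adjusted p = 0.0311). Each was called in 10 of 20 alternatives. HIF1A was not called by edgeR without vehicle library 1 or 2 or treated library 1 or 2 of the DEX table, nor without vehicle library 2 or 3 or any treated library of the NE table (0.22 to 0.30, adjusted p of 0.0644 to 0.112). PFKP was not called without vehicle library 1 or 2 or any treated library of the DEX table, nor without vehicle library 2 or 3 or treated library 1 or 2 of the NE table (0.17 to 0.21, adjusted p of 0.0544 to 0.0859), and also not with no filter on low counts (0.20, adjusted p = 0.0832). For EPAS1, which rose after each treatment, the difference was -0.18 (interval -0.32 to -0.03, adjusted p = 0.186, and 0.0333 with a GC and length correction). Without vehicle library 1 of the NE table the counts were again 4 larger and 1 smaller.

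SLC16A3 had a difference of 0.35 (adjusted p = 0.0613), which passed without vehicle library 2 (0.40, adjusted p = 0.0449) or treated library 1 (0.41, adjusted p = 0.0286) of the NE table and by DESeq2 (0.36, adjusted p = 0.0166). P4HA2 had 0.23 (adjusted p = 0.0518), which passed without vehicle library 3 of the NE table (0.27, adjusted p = 0.0258) and by DESeq2 (0.24, adjusted p = 0.021). Each of these genes passed in 7 of 20 alternatives.

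The untreated level of these genes differed between the tables. In the NE table's vehicle libraries 16 members were higher and 9 lower than in those of the DEX table, 67.6% of the 37 tested, against 51.6% of all 15952 genes called (25.8% higher and 25.8% lower). The sets did not overlap for 29 members (18 higher, 11 lower), against 56.2% of all genes (28.2% higher and 28% lower). Leaving out vehicle library 1 of the NE table gave 16 higher and 11 lower. Values here are CPM scaled over all 12 libraries. The vehicle sets differ in table, depth and whatever was run or processed with them, which cannot be told apart, and fewer cells of a kind cannot be told apart from less RNA per cell. Of 12 tested trabecular meshwork markers, 9 were lower and 1 higher in the NE table's vehicle libraries, and the part of this or of the higher CD68 in the differences was not tested.

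ALDOC, the brain-type aldolase, was 10.2, 11.1 and 11.2 CPM in the DEX table's vehicle libraries and 36.2, 33.7 and 33.7 CPM in those of the NE table. The sets were far apart, 3.18-fold, with a log2 difference of 1.67 ± 0.060 (SE, adjusted p = 3.99e-11). PFKFB4 was 7.57 ± 0.57 against 16.6 ± 0.18 CPM (log2 difference 1.13), CA9 2.99 ± 0.15 against 5.76 ± 0.88 CPM (0.94), ERO1A, which oxidises protein-folding disulfides, 85.9 ± 2.1 against 141.5 ± 7.2 CPM (0.72), and SLC2A1 62.6 ± 0.72 against 98.5 ± 2.6 CPM (0.65). PDK1 (0.59), LDHA (0.57), BNIP3 (0.47) and ADM (0.45) were also higher. The HIF targets split, with 4 higher and 5 lower among the 12.

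Others went the opposite way. SLC2A3 was 86.6, 84.8 and 76.7 CPM in the DEX table's vehicle libraries and 37.2, 39.0 and 40.1 CPM in those of the NE table, 2.13-fold lower (log2 difference -1.09 ± 0.075, adjusted p = 3.55e-08). HK2 was 42.1 ± 1.9 against 26.9 ± 0.30 CPM (-0.64), PFKFB3 43.9 ± 1.4 against 29.9 ± 0.90 CPM (-0.56), NDRG1 92.6 ± 0.25 against 65.2 ± 2.9 CPM (-0.51) and VEGFA 50.6 ± 1.7 against 36.0 ± 0.16 CPM (-0.49). ANKRD37 (-0.51) lost its call without vehicle library 1 of the DEX table (-0.42, adjusted p = 0.104) or vehicle library 2 of the NE table (-0.42, adjusted p = 0.0867). ENO1 (0.15) lost it without vehicle library 3 of the DEX table (0.13, adjusted p = 0.0652). EPAS1, KDM3A and MXI1 were lower by 0.41, 0.28 and 0.18 in size.

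The balance within families also differed between the vehicle sets, given here as values without a test. PFKFB4 supplied 14.7 ± 0.56% of PFKFB3 and PFKFB4 transcripts per length in the DEX table's vehicle libraries and 35.8 ± 0.81% in those of the NE table. SLC2A3 supplied 50.3 ± 1.4% and 23.2 ± 1.1% of the pair with SLC2A1, and HK2 20.7 ± 0.94% and 12.7 ± 0.19% of the hexokinases. P4HA2 held 18.8 ± 0.41% and 20.1 ± 0.43% of the pair with P4HA1, a share that is 35.1% in the DEX table's vehicle libraries when the longest transcript is used as the length.

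**Figure D4:**
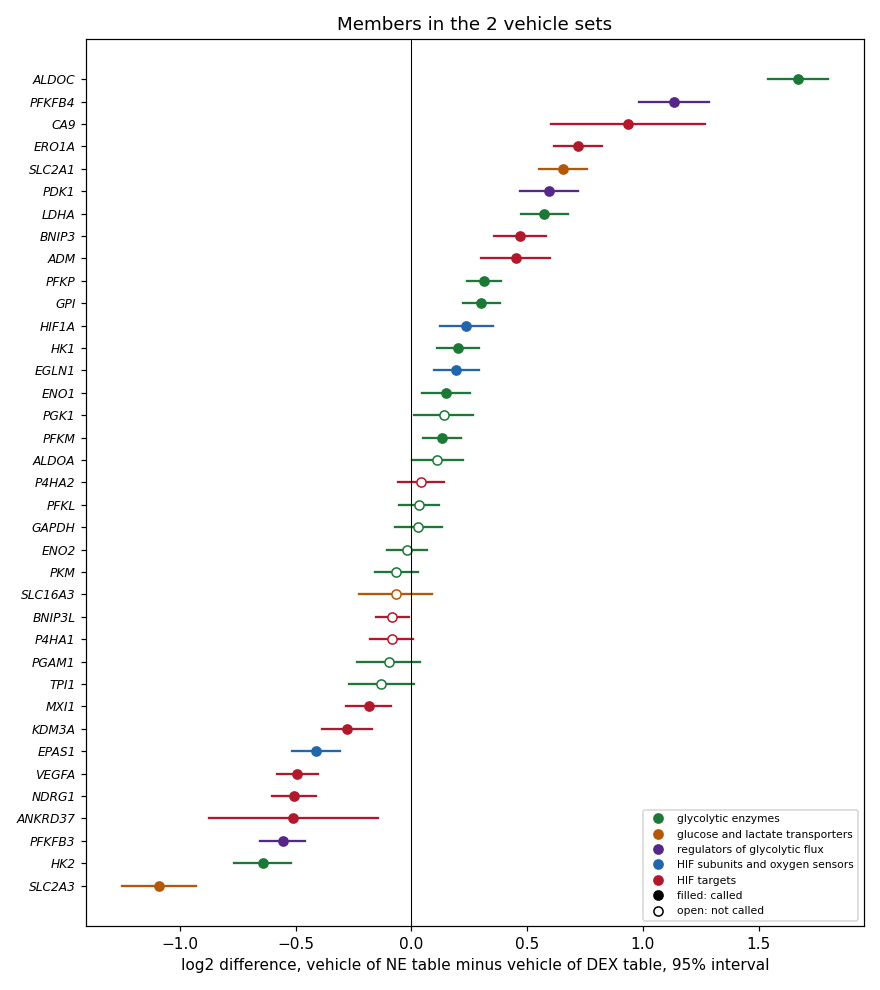
Log2 difference between the vehicle libraries of the NE table and those of the DEX table for the 37 tested members, ordered by size, with 95% intervals. Filled dots passed the test (16 higher, 9 lower), from ALDOC at 1.67 to SLC2A3 at -1.09.

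Beyond the 38 members, 97 other genes of glycolysis, pyruvate entry, sugar transport and the HIF pathway were listed, of which 84 were tested after each treatment. After DEX 7 of them rose and 3 fell, 11.9%, close to the 10.1% of all genes. CITED2, which competes with HIF alpha for the coactivators p300 and CBP, was 86.7, 87.6 and 86.0 CPM with vehicle and 172, 164 and 159 CPM with DEX. The groups were far apart, with a log2 change of 0.93 ± 0.043 (SE, adjusted p = 4.35e-09). Its relative CITED4 rose by 0.84 (adjusted p = 0.000151) at a low level of 3.90 ± 0.38 CPM with vehicle.

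ANGPTL4, an inhibitor of lipoprotein lipase, rose by 1.60 after DEX (adjusted p = 0.000113), from 0.813 ± 0.12 to 2.50 ± 0.26 CPM. TXNIP, which restrains glucose uptake, rose by 0.36 (adjusted p = 2.18e-05). SLC2A12, the glucose transporter GLUT12, fell by 0.56 (adjusted p = 0.00526). The calls for CITED2, CITED4, ANGPTL4, TXNIP and SLC2A12 held in all 15 alternatives. PDK4, a further pyruvate dehydrogenase kinase, had 1 to 16 counts per library and was not tested within either table. In the fit of all 12 libraries its DEX effect was called larger than its NE effect, by 2.09. That call held in only 4 of 20 alternatives.

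After NE 6 of the 84 rose and 3 fell, 10.7%, against 2.82% of all genes. The list was chosen with earlier results of these data known, so this share does not test it against all genes. PPP1R3C, which directs a phosphatase to glycogen, rose by 0.39 (adjusted p = 0.00325), and PC, the pyruvate carboxylase, rose by 0.39 after NE (adjusted p = 0.00229) and by 0.31 after DEX (adjusted p = 0.00254). STC2 and TFRC rose by 0.34 and 0.31, and MAFF fell by 0.36. These last 3 calls were each lost by edgeR without NE library 2 (adjusted p of 0.0786, 0.22 and 0.0805) or NE library 3 (0.0633, 0.146 and 0.0714). They were also lost without vehicle library 3 for STC2 (0.052) and TFRC (0.165), without NE library 1 for TFRC (0.138) and without vehicle library 2 for MAFF (0.0543).

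DDIT4, which restrains mTORC1, rose after both drugs. It was 85.9, 81.7 and 76.5 CPM with vehicle and 124, 123 and 131 CPM with DEX, and 102, 96.7 and 93.5 CPM with vehicle and 209, 195 and 191 CPM with NE. The log2 changes were 0.63 (adjusted p = 7.48e-07) and 1.03 (adjusted p = 8.69e-05), and they differed by -0.39 (adjusted p = 0.00442).

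IGFBP3, a HIF target that other signals also control and that binds insulin-like growth factors, moved in opposite directions after the 2 drugs. It was 57.0, 59.3 and 59.6 CPM with vehicle and 43.92, 45.02 and 41.87 CPM with DEX, and 9.17, 9.21 and 10.6 CPM with vehicle and 13.41, 13.22 and 13.02 CPM with NE. Treated and vehicle libraries did not overlap in either table, and the vehicle sets were far apart. It fell by 0.43 after DEX (adjusted p = 3.61e-05) and rose by 0.45 after NE (adjusted p = 0.0191), and the difference between the effects was -0.88 (adjusted p = 1.06e-05) by edgeR. The NE call was lost without vehicle library 2 (0.41, adjusted p = 0.0963), NE library 1 (0.44, adjusted p = 0.0673), NE library 2 (0.45, adjusted p = 0.115) or NE library 3 (0.46, adjusted p = 0.0907), while the difference held in all 20 alternatives.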

How the data were processed

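The authors deposited expected counts (estimated counts per gene that need not be whole) in 2 tables with 12 columns, while 9 samples are labelled. This unit follows from the values themselves: in each library, 49.3% to 55.6% of those above 0 had a fractional part. For the strand setting, kit, aligner, counter and build, nothing is given in the sources used here. Only the vehicle columns of the DEX table could be matched to labelled samples by name. Those of the NE table are named for DMSO and were assigned to the vehicle group only.

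Expected counts were rounded, which changed no total by more than 0.000918%. Symbols matched 34436 of the 37247 identifiers, and 34620 were in GENCODE 29 (GRCh38), which gave exon lengths. Promoters came from RefSeq (GRCh38.p14). Genes were filtered with filterByExpr, scaled by TMM and tested with edgeR 4.0.16 in R 4.3.3 (quasi-likelihood, robust, two-sided, Benjamini-Hochberg over all genes tested, called below 0.05), and the scripts were checked on simulated data. All adjusted p-values are edgeR's unless DESeq2 is named. DEX and NE were each fitted with the vehicle columns of their own table. The difference between the effects, and the vehicle sets, were fitted over all 12 libraries. SE is the log2 change divided by the root of F. Precision at these depths is given by the SE and 95% intervals. The strand setting being unknown, reads of overlapping genes may be shared. Rows annotated as pseudogenes (152 rows of 16 members) took at most 2.24% of the summed reads of any tested member.

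Alternatives were RLE factors, DESeq2 1.42.0, no filter or 1 CPM in 3 libraries, the replicate number as a block, summed pseudogenes, a GC and length correction, a fit of all 12 libraries, each library left out, and another gene length. Members and lists were chosen with earlier results of these data known. Named were all members called after DEX or NE or between their effects, 9 well-known members whatever their call, the 5 largest vehicle-set differences each way, up to 8 other pathway genes per comparison (1 of them is not reported here), and TSC22D3 and DUSP6. ENO2, ADM, SLC16A3 and P4HA2 under left-out libraries, and PDK4, were added after their values were seen. The same replicate numbers were not taken to pair libraries, as set out with the processing.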

Additional observations from a re-analysis of the deposited data

Results flagged for a closer look

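For 5 members the effect of DEX differed from that of NE by the test of the difference itself in the fit of all 12 libraries. The differences, DEX minus NE, were 0.53 for HK2, 0.19 for PFKP, 0.28 for HIF1A, -0.37 for VEGFA and 0.46 for NDRG1 on the log2 scale. HK2, VEGFA and NDRG1 kept this call in all 20 alternatives, PFKP and HIF1A in 10 of 20. The vehicle libraries of the 2 tables already differed for all 5 genes, by -0.64 for HK2, 0.31 for PFKP, 0.24 for HIF1A, -0.49 for VEGFA and -0.51 for NDRG1, and the part of this starting level in the difference was not tested.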

How the results depend on the processing

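No called log2 change of a member or named gene reversed under any alternative run. Members called lower after DEX numbered 2, and 1 under DESeq2 and with the replicate block. Members called higher after NE numbered 2, and 4 with the replicate block, alone or beside the GC and length correction. Members called lower after NE numbered 0, but 1 under DESeq2, 1 with no filter, 2 with the GC and length correction, 2 in the fit of all 12 libraries, 6 with the replicate block and 6 with both. Members whose DEX effect was smaller than the NE effect numbered 1, and 2 with the replicate block, 3 with the GC and length correction and 4 with both. Leaving out 1 library gave 1 to 2 members lower after DEX (main 2), 0 to 2 higher after NE (main 2), 0 to 3 lower after NE (main 0) and 2 to 4 with a larger DEX effect (main 4). The other counts stayed within 1.5 times. By the longest transcript in place of exon length, shares in the DEX table's vehicle libraries were 14.79% for HK2, 1.782% for ENO2, 52.31% for SLC2A3, 17.85% for PFKFB4, 35.06% for P4HA2 and 25.59% for EPAS1, against 20.65%, 2.421%, 50.29%, 14.71%, 18.79% and 24.06%. With the GC and length correction EGLN1 lost its call between the vehicle sets (0.04, adjusted p = 0.466) and GAPDH gained one (0.22). Over all genes, DEX calls were 1530 and 983 to 1835 with 1 library left out. NE calls were 441, and 150 to 658 with 1 left out (658 without vehicle library 1), 784 with the GC and length correction, 702 over 12 libraries, 1688 with the replicate block and 2078 with both.

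The replicate numbers were not taken to pair libraries. Deviations from the group means of same-numbered libraries correlated at 0, 0.01 and -0.058 for DEX and at 0.129, 0.055 and 0.085 for NE, where every library correlated best with its own number, a hint from the data and not from the design. With the replicate block SLC16A3 (adjusted p = 0.0778), EPAS1 (0.0726) and VEGFA (0.0972) were not called after DEX, while HIF1A and VEGFA were called higher and PGAM1, ENO2, SLC2A1, SLC2A3, SLC16A3 and ADM lower after NE. For the difference between the effects, HIF1A lost its call with the block (0.28, adjusted p = 0.0512), while SLC16A3 (0.014), P4HA2 (0.0412) and KDM3A (0.0339) gained one. Depth limited CA9, ANKRD37 and EGLN3, with at most 218, 60 and 10 counts in a library.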
